A study of Mus musculus with 24 samples.

Results

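The genes described here are 8 enzymes that bring pyruvate into the mitochondrial citric acid cycle and turn the cycle: Pcx, Pdha1, Cs, Idh3a, Ogdh, Sucla2, Fh1 and Mdh2. They were taken by name from the probe sets annotated to these genes, and each had 1 probe set, so no choice between probe sets was needed. They are 8 of 19938 named genes on the array, and all 8 were measured in all 24 mice.

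Expression was measured in epididymal white fat, a visceral depot along the epididymis, of 24 wild-type male C57Bl/6 mice in 4 groups of 6. The groups were conventional mice fed lard, conventional mice fed menhaden fish oil, germ-free mice fed lard and germ-free mice fed fish oil. All 4 groups received diets with 45% of energy as fat for 11 weeks from 11 weeks of age and were sampled after a fast of 4 h. Each mouse gave 1 array with values on the log2 scale, so a difference of 1 is a doubling, and precision is set by the number of arrays. Germ-free mice are raised without microbes, and bacterial status cannot be told apart here from other differences between the conventional and germ-free colonies. Lard and fish oil differ in many fatty acids, and there was no low-fat group.

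Pyruvate enters the cycle by either of a pair of routes. The pyruvate dehydrogenase complex converts it to acetyl-CoA, and pyruvate carboxylase converts it to oxaloacetate; citrate synthase joins both products to citrate, which the cycle oxidises back to oxaloacetate. In white adipocytes the cycle also supplies citrate for fatty acid synthesis, and oxaloacetate made from pyruvate can feed the synthesis of the glycerol backbone of triglycerides. These enzymes are encoded in the nucleus, and Pdha1, Idh3a, Ogdh and Sucla2 work in complexes whose other subunits come from separate genes.

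In the GRCm38.p6 assembly, Pcx lies at chr19:4510472-4621752, Pdha1 at chrX:160122219-160138430, Cs at chr10:128337727-128362482 and Idh3a at chr9:54586511-54604662. Ogdh lies at chr11:6291597-6359094, Sucla2 at chr14:73552786-73596144, Fh1 at chr1:175601378-175625635 and Mdh2 at chr5:135778649-135790386. Promoter windows of 250 bases before to 50 after an annotated start were held in a RefSeq table of the same assembly for 7 of the 8 genes, the exception being Idh3a. The windows of Pdha1 (chrX:160138381-160138680, minus strand), Ogdh (chr11:6291347-6291646, plus strand, the first of its 6 windows), Fh1 (chr1:175625586-175625885, minus strand) and Mdh2 (chr5:135778399-135778698, plus strand) are given because all 4 genes were lower with lard in conventional mice, while in germ-free mice Ogdh went the other way from Pdha1, Fh1 and Mdh2. Capitals mark matches, on either strand, to short motifs described in promoters of mitochondrial protein genes or, for the GC box, in promoters of many genes.
Pdha1: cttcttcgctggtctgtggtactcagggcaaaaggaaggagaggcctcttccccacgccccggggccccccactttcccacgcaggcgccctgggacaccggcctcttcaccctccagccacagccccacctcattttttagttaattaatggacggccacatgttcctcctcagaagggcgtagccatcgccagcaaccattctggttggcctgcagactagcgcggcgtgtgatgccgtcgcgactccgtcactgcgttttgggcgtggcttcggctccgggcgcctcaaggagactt
Ogdh: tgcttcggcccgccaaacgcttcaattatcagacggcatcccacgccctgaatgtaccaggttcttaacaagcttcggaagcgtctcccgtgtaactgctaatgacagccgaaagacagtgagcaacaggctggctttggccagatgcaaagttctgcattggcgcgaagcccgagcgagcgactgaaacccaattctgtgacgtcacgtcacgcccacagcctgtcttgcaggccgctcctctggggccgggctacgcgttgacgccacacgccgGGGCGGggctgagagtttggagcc
Fh1: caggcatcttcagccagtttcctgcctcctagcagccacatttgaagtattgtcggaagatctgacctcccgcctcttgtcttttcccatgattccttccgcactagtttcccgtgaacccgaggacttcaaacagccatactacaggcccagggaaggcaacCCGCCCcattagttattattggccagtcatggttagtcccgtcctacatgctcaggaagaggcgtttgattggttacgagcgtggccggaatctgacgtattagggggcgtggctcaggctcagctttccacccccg
Mdh2: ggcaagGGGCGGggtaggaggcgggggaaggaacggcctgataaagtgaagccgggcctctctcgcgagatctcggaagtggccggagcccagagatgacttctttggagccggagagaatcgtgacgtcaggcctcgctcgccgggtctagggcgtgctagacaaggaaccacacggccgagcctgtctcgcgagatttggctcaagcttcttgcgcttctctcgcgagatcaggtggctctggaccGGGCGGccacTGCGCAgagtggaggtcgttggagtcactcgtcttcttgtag

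Searched on both strands were TGCGCA (the core of the NRF1 site), AAGGTCA (the core of the site of estrogen-related receptors), CCGGAAG (the core of the ETS site that GABP binds) and GGGCGG (the GC box bound by Sp1). These motifs did not overlap each other in the 4 windows shown. The window of Pdha1 held none of the 4, that of Ogdh held 1 GC box, that of Fh1 held 1 GC box on the opposite strand, and that of Mdh2 held 2 GC boxes and 1 NRF1 core. Windows of Ogdh that are not shown held other matches. Its window 4 held 1 GC box and 1 estrogen-related receptor core, and its overlapping windows 5 and 6 held an NRF1 core. Of the 7 genes, 6 had a GC box, 2 an NRF1 core, 1 an estrogen-related receptor core and 0 an ETS core in at least 1 of their windows. They had 13 windows in all, some of which overlap and share a match (windows 1 to 3 of Ogdh hold the same GC box), so these counts per gene are not directly comparable with shares of windows. Among all 32851 windows of the table the shares were 35.7% for the GC box, 7.76% for the NRF1 core, 4.72% for the estrogen-related receptor core and 8.86% for the ETS core. A match is a run of letters and not a measured site.

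The tissue label was checked with 10 measured adipocyte marker genes, whose mean was 12.31 to 12.95 in every mouse while array medians were 7.09 to 7.20. Marker genes of other tissues were higher in some samples. A list of 10 hepatocyte genes averaged 6.23 to 7.94 in the 6 germ-free mice fed lard, against 8.46 to 9.95 in the 6 germ-free mice fed fish oil. In conventional mice it averaged 6.68 to 8.38 with lard and 6.52 to 8.35 with fish oil. A list of 8 intestinal epithelium genes averaged 10.27, 7.14 and 7.06 in lard-fed germ-free mice 4, 5 and 2, and 5.87 to 6.56 in the other 21 mice. Mice 4 and 2 of that group also had its highest hepatocyte list means, 7.94 and 7.745, against 6.23 to 6.65 in its other mice. Lard-fed conventional mice 5 and 6 had the lowest adipocyte list means of all mice, 12.31 and 12.38. Lard-fed germ-free mice 2 and 1 came next, at 12.465 and 12.48, against 12.71 to 12.86 in the others of their group. Both pairs had the highest means of their group for a list of 11 macrophage genes, 11.305 and 11.33 in the conventional pair and 11.42 and 11.315 in the germ-free pair. The germ-free pair was not left out together. In fish oil-fed conventional mouse 6 all 8 enzyme genes were at their highest of the group, and its list of 6 brown-like adipocyte genes averaged 8.35, against 7.46 to 7.56 in the other 5, and its hepatocyte list 8.35, against 6.52 to 7.04 in the other 5. Lard-fed conventional mouse 1, the highest of its group in 6 of the 8 enzyme genes, had that group's highest hepatocyte list mean, 8.38. An epididymis epithelium list of 5 measured genes averaged 6.30 in fish oil-fed germ-free mouse 6, against 5.05 to 5.20 in the other 5 of its group. Counts of called enzyme genes that change without lard-fed germ-free mice 2, 4 and 5, or without fish oil-fed conventional mouse 6, are given both ways. The hepatocyte signal was present in all fish oil-fed germ-free mice and could not be left out.

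**Figure D1:**
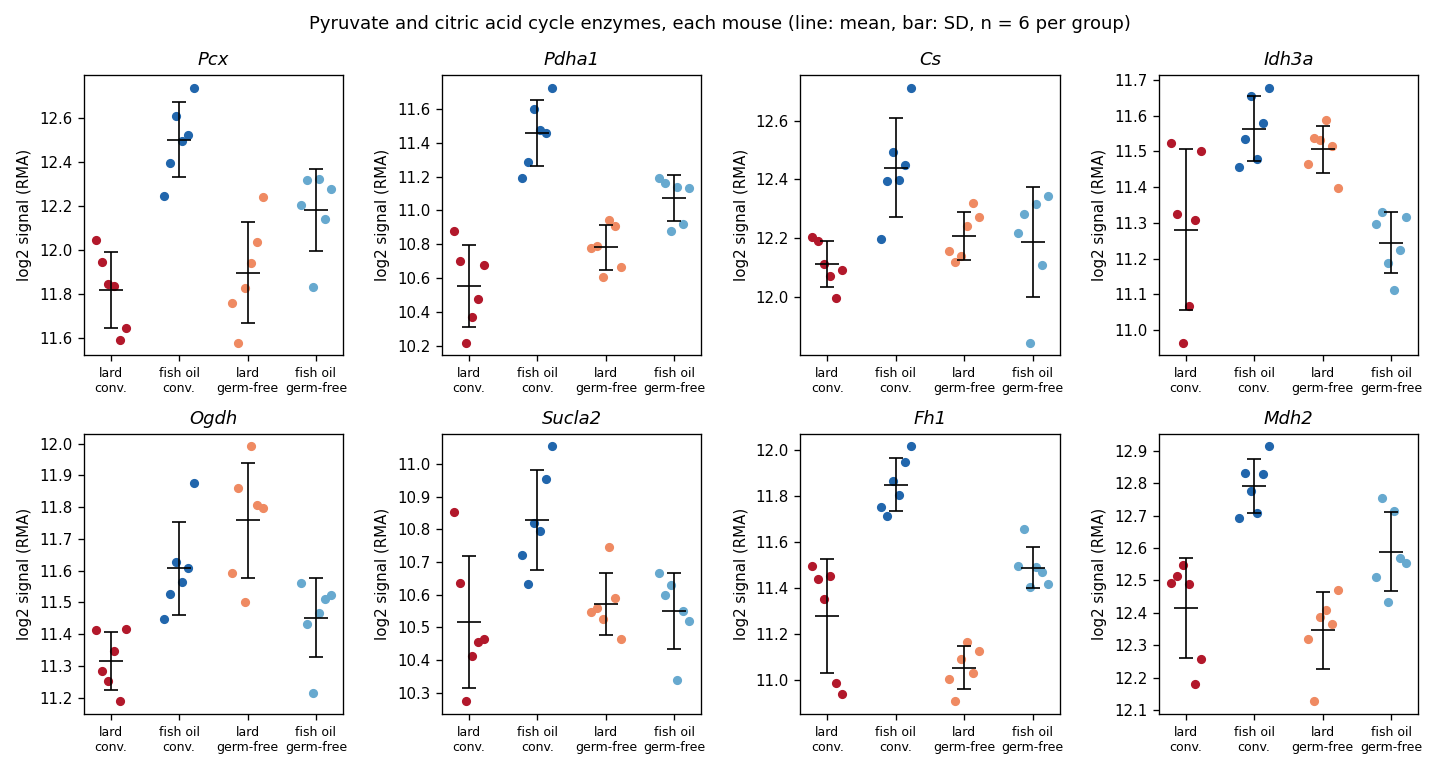
Log2 signal of each of the 8 enzyme genes (vertical axes) in each mouse, as points, for the 4 groups (horizontal axes), with lines at the mean and bars for the SD of 6 mice. Fish oil-fed conventional mice have the highest group mean for 7 of the 8 genes, and for Ogdh the highest mean is that of lard-fed germ-free mice, 11.76.

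The first comparison asked how lard differed from fish oil in mice with a microbiota. All 8 enzyme genes were lower in conventional mice fed lard than in conventional mice fed fish oil, past an adjusted p of 0.05 in limma's test. Of all genes tested, 15.6% were lower by the same rule, 15.4% were higher and 31.0% differed in either direction. The falls were largest at the point of pyruvate entry, in Pdha1 and Pcx, followed by Fh1 and Mdh2 late in the cycle, and were 1.22- to 1.26-fold in size in the 4 genes from citrate to succinate. The median log2 change of the 8 was -0.35, against -0.04 over all genes.

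Pdha1 encodes the alpha subunit of the first enzyme of the pyruvate dehydrogenase complex, the subunit on which the complex is switched off by phosphorylation. Its lowest, median and highest log2 values were 10.22, 10.58 and 10.88 in conventional mice fed lard, against 11.19, 11.46 and 11.72 in conventional mice fed fish oil. Every lard-fed mouse lay below every fish oil-fed mouse. The log2 change was -0.90 ± 0.10 (SE), 1.87-fold lower with lard (adjusted p = 5.13e-07). Pcx, pyruvate carboxylase, had log2 values of 11.59, 11.84 and 12.05 in conventional mice fed lard, against 12.25, 12.51 and 12.74 in conventional mice fed fish oil. These groups did not overlap either, and Pcx was 1.61-fold lower with lard (log2 change -0.68 ± 0.11, adjusted p = 2.34e-05). Mice 5 and 6 of the lard-fed conventional group had its lowest Pcx values, 11.59 and 11.64.

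Cs, citrate synthase, had lowest, median and highest log2 values of 11.996, 12.10 and 12.21 in conventional mice fed lard and of 12.20, 12.42 and 12.71 in conventional mice fed fish oil. The groups touched at one end, with 5 of 6 lard-fed mice below every fish oil-fed mouse, and the log2 change was -0.33 ± 0.08 (adjusted p = 0.00239). Idh3a, the catalytic subunit of the NAD-dependent isocitrate dehydrogenase, ranged from 10.96 over a median of 11.32 to 11.52 in conventional mice fed lard, and from 11.46 over 11.56 to 11.68 in conventional mice fed fish oil. Lard-fed mice 3 and 4 were lowest, at 10.96 and 11.07, and mice 1 and 6 lay within the range of the fish oil-fed group, so the groups overlapped (log2 change -0.28 ± 0.08, adjusted p = 0.00661). Ogdh, the first enzyme of the 2-oxoglutarate dehydrogenase complex, was 11.19, 11.32 and 11.42 at its lowest, median and highest in conventional mice fed lard, against 11.45, 11.59 and 11.88 in conventional mice fed fish oil. Its groups stayed apart by a narrow margin, and the log2 change was -0.29 ± 0.08 (adjusted p = 0.00693). Sucla2, the ADP-forming beta subunit of succinyl-CoA synthetase, was 10.27, 10.46 and 10.85 in conventional mice fed lard and 10.63, 10.81 and 11.05 in conventional mice fed fish oil. Lard-fed mouse 1 lay above the mean of the fish oil-fed mice, and the log2 change was -0.31 ± 0.08 (adjusted p = 0.00584).

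Fh1, fumarate hydratase, had log2 values of 10.94, 11.40 and 11.49 at its lowest, median and highest in conventional mice fed lard, against 11.71, 11.84 and 12.02 in conventional mice fed fish oil. The lard-fed mice fell into a lower pair, mice 5 and 6 at 10.99 and 10.94, and 4 mice at 11.35 to 11.49, all below the fish oil-fed mice. Fh1 was 1.49-fold lower with lard (log2 change -0.57 ± 0.09, adjusted p = 1.8e-05). Mdh2, the mitochondrial malate dehydrogenase, was 12.18, 12.49 and 12.55 in conventional mice fed lard and 12.69, 12.80 and 12.91 in conventional mice fed fish oil. The same pair of mice was lowest, at 12.18 and 12.26, and the groups did not overlap (log2 change -0.38 ± 0.07, adjusted p = 0.000264). Groups without overlap, lard below fish oil, were thus found for 5 of the 8 genes, against 6.62% of all genes.

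Only Pdha1 and Pcx changed by at least 1.5-fold, against 2.76% of all genes lower by that rule. Without lard-fed mice 5 and 6 all 8 genes remained lower with adjusted p between 6.34e-06 and 0.0363, and without fish oil-fed mouse 6 all 8 also remained lower, with Pdha1 at -0.85 and Ogdh at -0.24.

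Partner genes were lower too. Of 14 measured genes of pyruvate entry and its control, 9 fell with lard in conventional mice and 0 rose, with a median log2 change of -0.59. Pdhb, the beta subunit that pairs with Pdha1, fell by 0.98 ± 0.10 (adjusted p = 1.62e-07), and Ldhb, a lactate dehydrogenase subunit, fell by 0.89 ± 0.16 (adjusted p = 0.000131). Pdk2 and Pdk1, kinases that switch the pyruvate dehydrogenase complex off, fell by 0.76 ± 0.14 and 0.67 ± 0.12, so the list's falls include both the complex and some of its inhibitors. The related kinases Pdk3 (log2 change -0.003, adjusted p = 0.981) and Pdk4 (0.39 ± 0.26, adjusted p = 0.272) did not pass. Of 10 other cycle enzyme genes 9 fell and 0 rose, with a median of -0.46. Sdhb, the iron-sulfur subunit of succinate dehydrogenase, fell by 0.85 ± 0.08 (adjusted p = 7.69e-08), Suclg1, the alpha subunit that pairs with Sucla2 or Suclg2, by 0.75 ± 0.12, and Sdha, the flavoprotein subunit, by 0.58 ± 0.07. Suclg2, the GDP-forming counterpart of Sucla2, fell by 0.54 ± 0.14 (adjusted p = 0.00428).

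Genes that move cycle intermediates out of the cycle or across the mitochondrial membrane did not go one way: 4 of 17 rose and 5 fell, with a median of 0.02. Pck1, which turns oxaloacetate into phosphoenolpyruvate, fell by 1.88 ± 0.29 (adjusted p = 1.98e-05), and Acly, which splits citrate to acetyl-CoA in the cytosol, fell by 0.82 ± 0.17 (adjusted p = 0.000757). Slc25a13, a mitochondrial aspartate-glutamate carrier, rose by 1.24 ± 0.27 (adjusted p = 0.00103), and Got1, the cytosolic aspartate aminotransferase, rose by 0.83 ± 0.16 (adjusted p = 0.000315). Lard-fed conventional mice 5 and 6 were highest in both. Slc25a13 was 8.92 and 9.13 in them, 7.21 to 7.77 in the others of their group and at most 7.19 with fish oil. Got1 was 9.91 and 10.35 in them, 9.25 to 9.40 in the others and at most 9.14 with fish oil. Among 10 regulators of mitochondrial biogenesis 4 fell and 0 rose, where 15.6% of all genes fell and 15.4% rose. The coactivator Ppargc1a fell by 1.23 ± 0.16 (adjusted p = 3.14e-06), its relative Ppargc1b by 0.46 ± 0.09, the mitochondrial transcription factor Tfb2m by 0.29 ± 0.10 and the receptor Esrra by 0.25 ± 0.09 (adjusted p = 0.0272).

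In the same contrast 10 of 11 macrophage marker genes rose and 1 fell, and 8 of 10 adipocyte marker genes fell and 1 rose. The macrophage list averaged 10.38 to 11.33 in conventional mice fed lard and 9.61 to 10.25 in conventional mice fed fish oil, and the adipocyte list 12.31 to 12.75 in conventional mice fed lard and 12.81 to 12.92 in conventional mice fed fish oil. All 7 mesothelial marker genes fell (log2 changes -1.07 to -0.61), with list means of 7.82 to 8.66 in conventional mice fed lard and 8.502 to 9.65 in conventional mice fed fish oil. Of 6 brown-like adipocyte genes 3 fell, Cidea (log2 change -1.815 ± 0.23), Cox8b (-1.30 ± 0.29) and Ppara (-0.705 ± 0.147), and 1 rose, Elovl3 (0.71 ± 0.27, adjusted p = 0.0497), while Ucp1 was at -0.11 (adjusted p = 0.46). The part of these lists in the enzyme changes was not tested, and in whole tissue fewer cells of a type and less RNA per cell cannot be told apart.

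**Figure D2:**
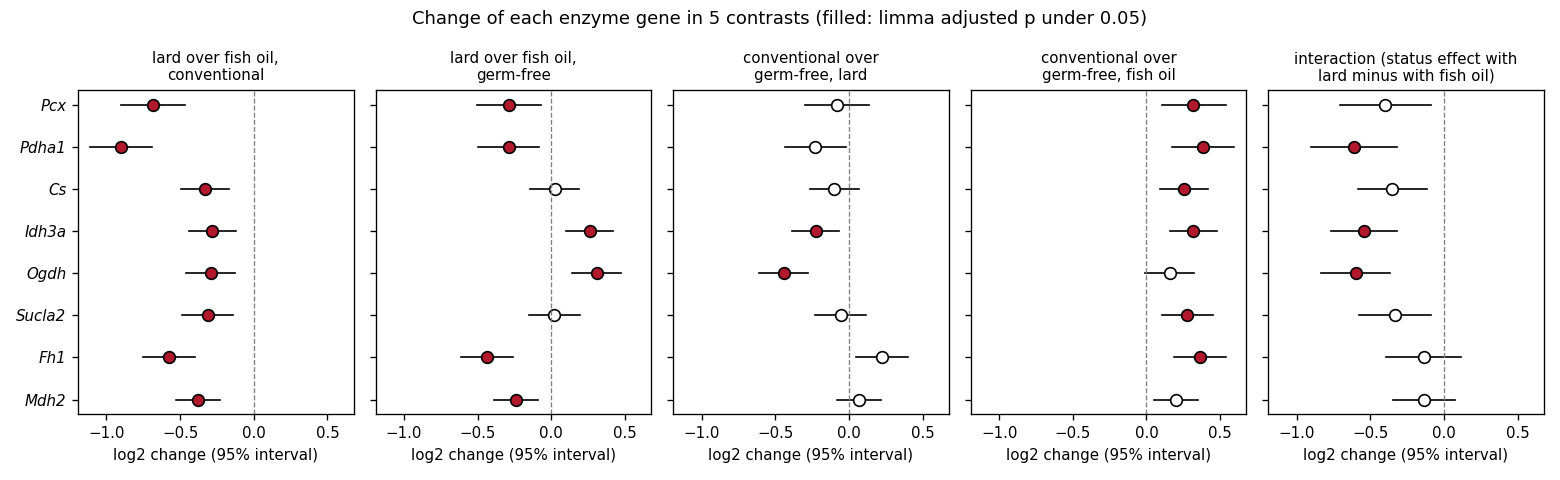
Log2 change of each enzyme gene (points, with 95% intervals as lines along the horizontal axes) in the 5 contrasts, 1 panel each, with points filled in red where limma's adjusted p was under 0.05. All 8 points lie left of 0 for lard over fish oil in conventional mice, and in germ-free mice Idh3a and Ogdh lie right of 0 at 0.26 and 0.31.

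The second comparison asked the same of diet in mice without microbes, in other animals than the first. In germ-free mice the enzyme genes split: Fh1, Pdha1, Pcx and Mdh2 were lower with lard, Idh3a and Ogdh were higher, and Cs and Sucla2 did not pass the test. Thus 6 of 8 were called, against 47.5% of all genes, with 27.1% of all genes lower and 20.4% higher. The median log2 change of the 8 was -0.11, against -0.08 over all genes. With array medians set equal, the split of all genes turned to 4808 higher and 3313 lower from 4072 higher and 5396 lower, and of the enzyme genes 3 remained called, Idh3a and Ogdh higher and Fh1 lower.

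Ogdh had lowest, median and highest log2 values of 11.50, 11.80 and 11.99 in germ-free mice fed lard, against 11.21, 11.49 and 11.56 in germ-free mice fed fish oil. The highest lard-fed mice were numbers 4 and 2, at 11.99 and 11.86, and 5 of 6 lard-fed mice lay above every fish oil-fed mouse. The rise was 1.24-fold (log2 change 0.31 ± 0.08, adjusted p = 0.0033). Idh3a had 11.40, 11.52 and 11.59 in germ-free mice fed lard and 11.11, 11.26 and 11.33 in germ-free mice fed fish oil. Its groups did not overlap, a separation upward found in 13.4% of all genes, and the rise was 1.20-fold (log2 change 0.26 ± 0.08, adjusted p = 0.00808). Idh3a and Ogdh were thus lower with lard in conventional mice and higher with lard in germ-free mice, a pattern shared by 64 genes, 0.321% of those tested.

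Fh1 was 10.91, 11.06 and 11.16 at its lowest, median and highest in germ-free mice fed lard, against 11.41, 11.48 and 11.66 in germ-free mice fed fish oil. There was no overlap, as in 11.1% of all genes with lard lower, and Fh1 was 1.35-fold lower with lard (log2 change -0.44 ± 0.09, adjusted p = 0.000268). Mdh2 was 12.13, 12.38 and 12.47 in germ-free mice fed lard and 12.43, 12.56 and 12.75 in germ-free mice fed fish oil. The groups overlapped at one end (log2 change -0.24 ± 0.07, adjusted p = 0.00855). Pdha1 had 10.61, 10.79 and 10.94 in germ-free mice fed lard against 10.88, 11.14 and 11.19 in germ-free mice fed fish oil, a log2 change of -0.29 ± 0.10 (adjusted p = 0.0221). Pcx had 11.58, 11.88 and 12.24 in germ-free mice fed lard against 11.83, 12.24 and 12.32 in germ-free mice fed fish oil, a change of the same size with a wider overlap (-0.29 ± 0.11, adjusted p = 0.0297). The Pcx call was lost on leaving out, in turn, 6 of the 12 mice, with adjusted p up to 0.0919.

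Cs was 12.12, 12.20 and 12.32 in germ-free mice fed lard and 11.85, 12.25 and 12.35 in germ-free mice fed fish oil, with 3 lard-fed mice above and 3 below the mean of the fish oil-fed mice. The log2 change of Cs was 0.02 with a 95% interval from -0.14 to 0.19 (adjusted p = 0.829). Sucla2 was 10.46, 10.55 and 10.75 in germ-free mice fed lard and 10.34, 10.57 and 10.67 in germ-free mice fed fish oil, a log2 change of 0.02 with an interval from -0.15 to 0.20 (adjusted p = 0.842). Both intervals include 0 and small changes in either direction, so no direction is given for either gene.

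Without mice 2, 4 and 5 of the lard-fed germ-free group, the mice with intestinal signal, Fh1 (-0.42, adjusted p = 0.00743) and Pdha1 (-0.39, adjusted p = 0.0256) remained called, while Ogdh was 0.18 (adjusted p = 0.154), Idh3a 0.22 (adjusted p = 0.107), Pcx -0.24 (adjusted p = 0.167) and Mdh2 -0.20 (adjusted p = 0.1). Mice 2 and 4 also had the highest hepatocyte list means of their group, so leaving them out does not isolate the intestinal signal. In this contrast 10 of 11 macrophage marker genes rose and 1 fell, 6 of 10 adipocyte marker genes fell and 1 rose, and 9 of 10 hepatocyte genes fell, with 0 rising. The macrophage list averaged 10.84 to 11.42 with lard and 9.97 to 10.60 with fish oil, and the adipocyte list 12.47 to 12.86 with lard and 12.75 to 12.95 with fish oil. Of 7 mesothelial genes 5 fell and 0 rose, with list means of 8.07 to 8.89 with lard and 8.84 to 9.60 with fish oil, and of 6 brown-like genes 3 fell and 0 rose, Cidea among them (-0.75 ± 0.23, adjusted p = 0.01); the part of these lists in the enzyme changes was not tested.

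Among the partner genes in germ-free mice, 8 of 10 other cycle enzyme genes fell with lard and 0 rose, with a median log2 change of -0.36. Suclg1 fell by 0.78 ± 0.12 (adjusted p = 1.25e-05), Sdhb by 0.70 ± 0.08, and Idh3g, the gamma subunit that regulates the complex of Idh3a, by 0.51 ± 0.09 (adjusted p = 4.16e-05) while Idh3a itself rose. Of the 14 genes of pyruvate entry 5 fell and 2 rose. Pdhb fell by 0.85 ± 0.10 (adjusted p = 7.52e-07), Pdk2 by 0.76 ± 0.14 and Mpc1, a subunit of the mitochondrial pyruvate carrier, by 0.75 ± 0.11. Of 17 exchange genes 9 rose and 2 fell, led by Slc25a13 at 1.57 ± 0.27 and its relative Slc25a12 at 0.98 ± 0.11, with Pck1 at -1.48 ± 0.29 (adjusted p = 0.000194). Of 10 regulators 2 rose and 3 fell: Tfb1m, which methylates mitochondrial ribosomal RNA, rose by 0.64 ± 0.09 and Tfb2m by 0.46 ± 0.10, and Ppargc1a fell by 0.53 ± 0.16 (adjusted p = 0.00843). Over all genes 27.1% fell and 20.4% rose in this contrast. The 7 of 14 pyruvate entry genes and 5 of 10 regulators called lie near the 47.5% of all genes called.

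**Figure D3:**
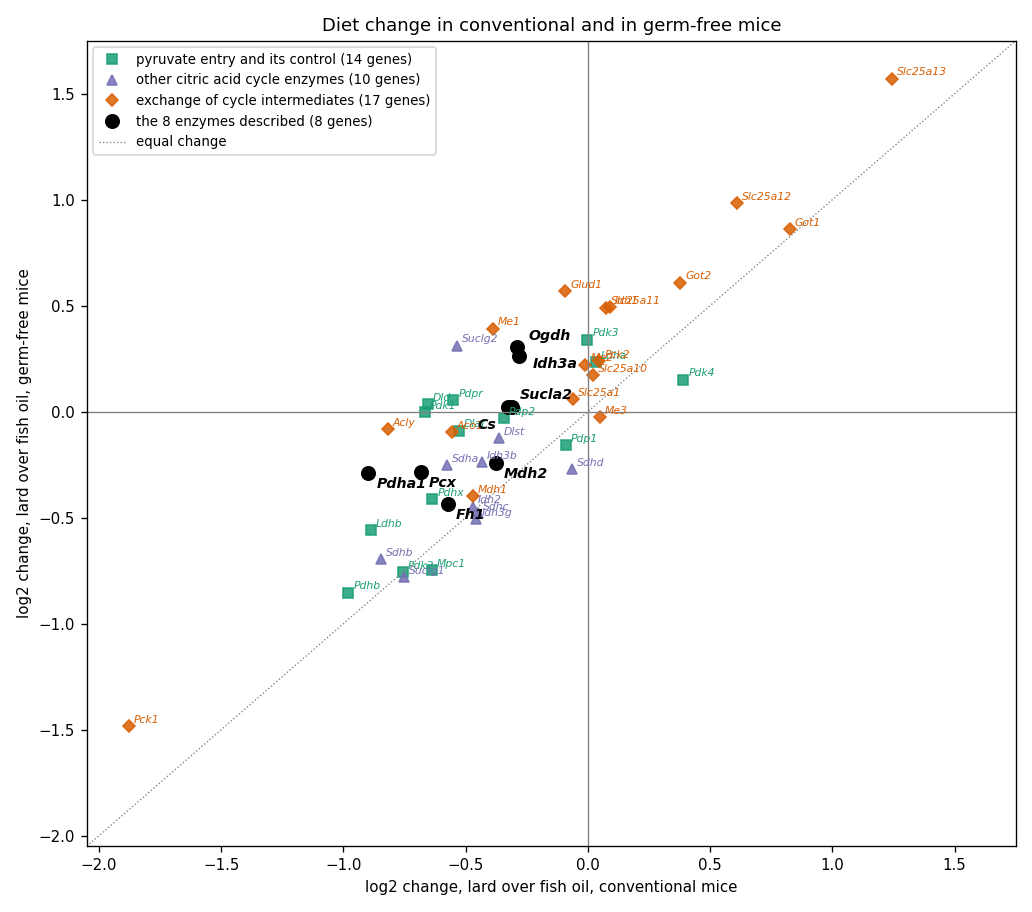
Log2 change with lard over fish oil in conventional mice (horizontal axis) and in germ-free mice (vertical axis) for the 8 enzyme genes in black and for 3 lists of related genes in colour, with a dotted line of equal change. All 8 enzyme genes lie left of the vertical zero line and above the line of equal change, with Pck1 farthest down at -1.88 and -1.48 and Slc25a13 farthest up at 1.24 and 1.57.

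The third comparison set conventional against germ-free mice fed lard. Few of the enzyme genes differed: Ogdh and Idh3a were lower in conventional mice, and 0 were higher. Their 2 calls among 8 compare with 16.3% of all genes called in either direction, 7.48% lower and 8.77% higher, and the median log2 change of the 8 was -0.09, against 0.02 over all genes. Ogdh was 11.19 to 11.42 in conventional mice fed lard and 11.50 to 11.99 in germ-free mice fed lard. No conventional mouse reached the lowest germ-free mouse, a separation found downward in 1.6% of all genes, and Ogdh was 1.36-fold lower in conventional mice (log2 change -0.44 ± 0.08, adjusted p = 0.000864). Idh3a was 10.96 to 11.52 in conventional mice fed lard and 11.40 to 11.59 in germ-free mice fed lard, overlapping in part (-0.23 ± 0.08, adjusted p = 0.0485). The Idh3a call stood at the threshold: it was lost on leaving out, in turn, 9 of the 12 mice. Fh1 was 0.22 ± 0.09 higher in conventional mice, which did not pass (adjusted p = 0.0806), and was 0.38 higher without conventional mice 5 and 6 (adjusted p = 0.000169). Pdha1, at -0.23 (adjusted p = 0.134), passed limma's test without conventional mouse 1 (-0.29, adjusted p = 0.0469).

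Without mice 2, 4 and 5 of the lard-fed germ-free group 0 of the 8 passed limma's test and 1, Ogdh at -0.31 (adjusted p = 0.0781), had an unadjusted p under 0.05, while 177 of all genes passed, against 3240 with these mice included. In this contrast 2 of 8 intestinal genes were lower in conventional mice and 0 were higher. Their part was not tested alone, since leaving out these mice also removed the group's highest hepatocyte list means. Both status comparisons share their mice with the diet comparisons. With lard 5 of 10 other cycle enzyme genes were higher in conventional mice and 1 was lower, among them Suclg1 at 0.44 ± 0.12 (adjusted p = 0.0108), Idh3g at 0.30 ± 0.09 and, downward, Suclg2 at -0.42 ± 0.14 (adjusted p = 0.0373). Of 17 exchange genes 4 were lower and 0 higher, with Slc25a13 at -0.81 ± 0.27 (adjusted p = 0.0439), Glud1, glutamate dehydrogenase, at -0.57 ± 0.11 and Slc25a12 at -0.49 ± 0.11. Of the 14 genes of pyruvate entry 2 were higher, Mpc1 at 0.42 ± 0.11 and Pdhb at 0.32 ± 0.10, and 1 was lower, Pdpr, the regulatory subunit of the pyruvate dehydrogenase phosphatase, at -0.38 ± 0.10 (adjusted p = 0.0147). Of 10 regulators Tfb2m alone was called, at -0.49 ± 0.10 (adjusted p = 0.00215). Over all genes 8.77% were higher and 7.48% lower in this contrast. Without germ-free mice 2, 4 and 5, 0 of the 51 genes of these 4 lists passed limma's test, and 9 had an unadjusted p under 0.05.

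The fourth comparison set conventional against germ-free mice fed fish oil. Here 6 of the 8 enzyme genes were higher in conventional mice, 0 were lower, and Ogdh and Mdh2 did not pass; of all genes 7.15% were higher, 5.21% were lower and 12.4% were called in either direction. The median log2 change of the 8 was 0.30, against -0.01 over all genes. Pdha1 was 1.31-fold higher in conventional mice (log2 change 0.38 ± 0.10, adjusted p = 0.0134), Fh1 1.29-fold (0.36 ± 0.09, adjusted p = 0.00759) and Idh3a 1.25-fold (0.32 ± 0.08, adjusted p = 0.00833). Fh1 was 11.71 to 12.02 in conventional mice fed fish oil and 11.41 to 11.66 in germ-free mice fed fish oil, and Idh3a 11.46 to 11.68 in conventional mice fed fish oil and 11.11 to 11.33 in germ-free mice fed fish oil. In these 2 genes the groups did not overlap, as in 3.81% of all genes with conventional mice higher.

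Pcx was 0.32 ± 0.11 higher in conventional mice (adjusted p = 0.0476), Sucla2 0.28 ± 0.08 (adjusted p = 0.0308) and Cs 0.25 ± 0.08 (adjusted p = 0.0368). Sucla2 had 5 of 6 conventional mice above every germ-free mouse, and so had Cs, where germ-free mouse 3 was far below the others at 11.85. Ogdh was 0.16 ± 0.08 higher (adjusted p = 0.219) and Mdh2 0.20 ± 0.07 (adjusted p = 0.0677). Without fish oil-fed conventional mouse 6 the calls fell to 3, with Pcx at 0.27 (adjusted p = 0.11), Cs at 0.20 (adjusted p = 0.0976) and Sucla2 at 0.23 (adjusted p = 0.0787). They also numbered 3 without conventional mouse 3, conventional mouse 5 or germ-free mouse 5, and after repeated quantile normalization. The Pcx call was lost on leaving out, in turn, 10 of the 12 mice, the Sucla2 call with 6 of them and the Cs call with 5. Without germ-free mouse 3 the calls numbered 4, with Cs at 0.185 (adjusted p = 0.0999) and Pcx at 0.249 (adjusted p = 0.127). Without germ-free mouse 6 neither Pcx (adjusted p = 0.0585) nor Sucla2 (adjusted p = 0.0582) passed limma's test. Median centring turned the split of all genes to 2757 higher and 701 lower, from 1425 higher and 1039 lower, and 7 of the enzyme genes were then higher.

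All 10 hepatocyte genes were lower in conventional than in germ-free mice with fish oil, at list means of 6.52 to 8.35 in conventional mice and 8.46 to 9.95 in germ-free mice; the part of that signal in the enzyme differences was not tested. Macrophage markers were lower in conventional mice for 5 of 11 genes and higher for 0. Of 6 brown-like adipocyte genes 2 were higher in conventional mice, Cidea by 1.20 ± 0.23 (adjusted p = 0.00164) and Cox8b by 1.20 ± 0.29 (adjusted p = 0.00732), and 0 were lower; their part was not tested either. Of the 14 genes of pyruvate entry 6 were higher in conventional mice and 0 lower, with Ldhb at 0.58 ± 0.16, Pdk1 at 0.55 ± 0.12, Pdhb at 0.44 ± 0.10 and Pdhx, the subunit that anchors dihydrolipoamide dehydrogenase in the complex, at 0.44 ± 0.10 (adjusted p = 0.007). Of 10 other cycle enzyme genes 5 were higher and 0 lower, with Suclg2 at 0.42 ± 0.14, Sdhb at 0.42 ± 0.08 and Suclg1 at 0.41 ± 0.12 (adjusted p = 0.0216). Of 17 exchange genes 5 were higher and 0 lower, with Acly at 0.85 ± 0.17 (adjusted p = 0.00265) and Me1, the cytosolic malic enzyme, at 0.54 ± 0.10 (adjusted p = 0.000852). Of 10 regulators Ppargc1a at 0.50 ± 0.16 and Tfb1m at 0.39 ± 0.09 were higher and 0 were lower. Over all genes 7.15% were higher and 5.21% lower in this contrast. Without fish oil-fed conventional mouse 6 the calls were 6 for pyruvate entry, 2 for the other cycle enzymes, 2 for the exchange genes and 1 for the regulators.

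**Figure D4:**
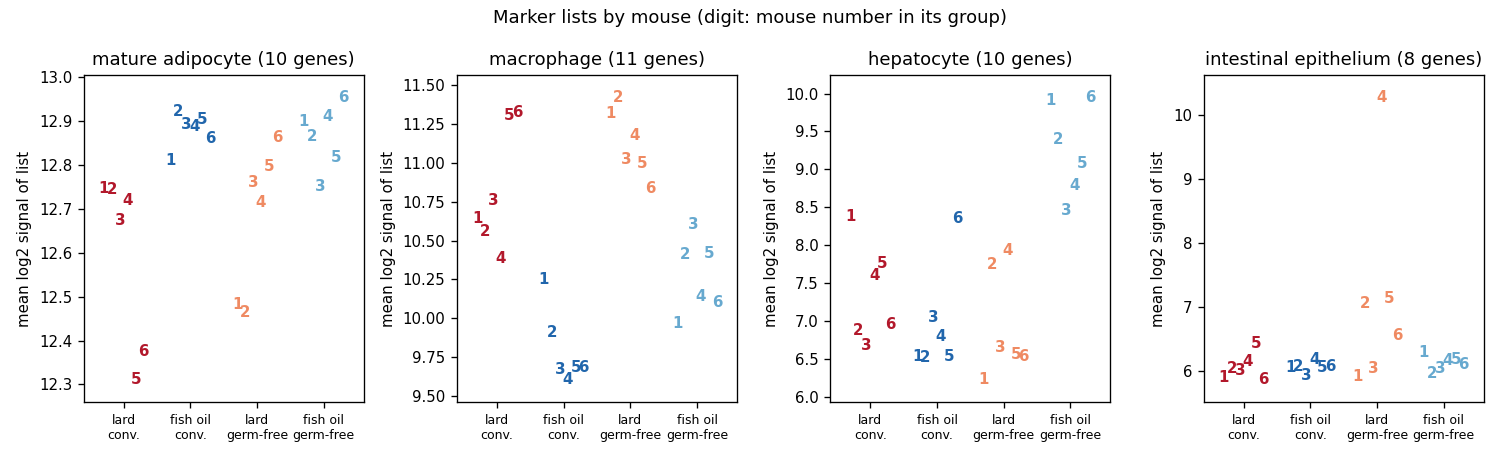
Mean log2 signal of 4 marker lists (vertical axes) in each mouse of the 4 groups (horizontal axes), drawn as the mouse's number in its group. Hepatocyte genes are highest in germ-free mice fed fish oil, at 8.46 to 9.95, and intestinal genes stand out in lard-fed germ-free mouse 4, at 10.27.

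The interaction is the status effect under lard minus the status effect under fish oil, and tests whether diet and status combine beyond addition; it equals the diet effect in conventional mice minus that in germ-free mice. It was negative in all 8 enzyme genes and passed the test in 3, Pdha1, Ogdh and Idh3a, against 7.2% of all genes in either direction, 4.38% with a negative value and 2.81% with a positive one. The median of the 8 was -0.38, against 0.04 over all genes. The interaction of Pdha1 was -0.61 ± 0.14 (adjusted p = 0.0113), from a fall with lard of 0.90 in conventional mice beside one of 0.29 in germ-free mice. For Ogdh it was -0.60 ± 0.11 (adjusted p = 0.00297) and for Idh3a -0.54 ± 0.11 (adjusted p = 0.00469), genes whose diet effects had opposite signs. The other 5 did not pass: Pcx was at -0.40 (adjusted p = 0.107), Cs at -0.35 (adjusted p = 0.0575), Sucla2 at -0.33 (adjusted p = 0.0901), Fh1 at -0.14 (adjusted p = 0.551) and Mdh2 at -0.13 (adjusted p = 0.476). Median centring raised the count to 6 of 8, while the split of all genes moved to 312 positive and 1688 negative, from 561 positive and 874 negative. Without lard-fed conventional mouse 1 the calls numbered 5, as Cs (adjusted p = 0.0459) and Sucla2 (adjusted p = 0.0208) also passed limma's test. Cs passed as well without fish oil-fed germ-free mouse 6 (adjusted p = 0.0447) or fish oil-fed conventional mouse 1 (adjusted p = 0.0283).

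Changes of at least 1.5-fold were called for diet in conventional mice and for the interaction, and in no other contrast. A rule of an adjusted p under 0.05 and at least 1.5-fold took 2 of the 8 genes for diet in conventional mice, against 8.16% of all genes in either direction. By that rule 0 of 8 were called for diet in germ-free mice (9.96% of all genes), 0 for status with lard (1.47%), 0 for status with fish oil (1.81%) and 2, Pdha1 and Ogdh, for the interaction (1.93%).

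Without mice 2, 4 and 5 of the lard-fed germ-free group, 0 of the 8 passed limma's interaction test, while 5 had an unadjusted p under 0.05. Of the 3 called before, Ogdh was -0.47 (adjusted p = 0.0538), Idh3a -0.50 (adjusted p = 0.0576) and Pdha1 -0.51 (adjusted p = 0.132), and over all genes 225 passed in place of 1435. With all mice, 5 of 14 genes of pyruvate entry had a negative interaction and 0 a positive one. Dld, the dehydrogenase that the pyruvate and 2-oxoglutarate complexes share, was at -0.69 ± 0.14 (adjusted p = 0.00603), Pdk1 at -0.67 ± 0.17, Pdpr at -0.61 ± 0.15 and Dlat, the acetyltransferase of the pyruvate complex, at -0.44 ± 0.12 (adjusted p = 0.0286). Suclg2 was the 1 called among 10 other cycle enzyme genes, at -0.85 ± 0.20 (adjusted p = 0.011). Exchange genes gave 3 of 17, all negative, Me1 at -0.78 ± 0.14, Glud1 at -0.66 ± 0.15 and Aco1, the cytosolic aconitase, at -0.46 ± 0.12 (adjusted p = 0.0172), and regulators 2 of 10, Tfb2m at -0.75 ± 0.15 and Tfb1m at -0.64 ± 0.13. Over all genes the interaction was called in 7.2%, negative in 4.38%. Hepatocyte genes had a positive interaction in 8 of 10 and a negative one in 0, the opposite sign to the enzyme genes, and the brown-like gene Cidea was at -1.06 ± 0.33 (adjusted p = 0.0469); their part was not tested. Without mice 2, 4 and 5 of the lard-fed germ-free group, 1 of the 51 genes of the 4 lists passed limma's interaction test, an exchange gene, and 20 had an unadjusted p under 0.05. The calls in the pyruvate entry list were 3 on leaving out any 1 of fish oil-fed conventional mice 3 and 6, fish oil-fed germ-free mice 3 and 4, and lard-fed conventional mice 3 and 4, and without lard-fed conventional mice 5 and 6 those among the exchange genes were 8.

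The order of the 4 group means differed between genes. Fish oil-fed conventional mice had the highest mean in 7 of 8 genes, and lard-fed germ-free mice had it for Ogdh. Lard-fed conventional mice had the lowest mean for Pcx, Pdha1, Cs, Ogdh and Sucla2, lard-fed germ-free mice for Fh1 and Mdh2, and fish oil-fed germ-free mice for Idh3a. Between neighbours in these orders the mice of the groups overlapped in every gene, with the exception of Fh1, whose fish oil-fed conventional mice all lay above the fish oil-fed germ-free mice.

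Within groups the genes did not vary as a single block. Over the 24 arrays, each taken as its deviation from its group mean, Pearson's r was 0.85 between Pcx and Cs, 0.81 between Fh1 and Mdh2, 0.80 between Pcx and Mdh2 and 0.78 between Pdha1 and Idh3a. Idh3a went with neither Fh1 (r = -0.07) nor Mdh2 (r = -0.18). These coefficients describe mice that share array and tissue composition and carry no test.

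Across all 24 arrays and all other named genes, the profiles most like those of Fh1 were Hint2 (r = 0.98) and Suclg1 (r = 0.98), and those most like Pcx were Gys1, glycogen synthase (r = 0.98), and Pgm1, phosphoglucomutase (r = 0.96). Pdha1 was closest to Ndufs1, a subunit of respiratory complex I (r = 0.96), and Sfxn1, a mitochondrial serine transporter (r = 0.95). Mdh2 was closest to Slc25a35 (r = 0.96) and Mcrip2 (r = 0.95), and Cs to Echs1, the short-chain enoyl-CoA hydratase (r = 0.91), and Immt, a protein of the inner membrane folds (r = 0.90). The profiles nearest to Ogdh were Nudt12 (r = 0.93) and Ipo9 (r = 0.92), to Idh3a Carnmt1 (r = 0.91) and Tomm70a, an import receptor of the outer membrane (r = 0.88), and to Sucla2 Mospd1 (r = 0.89) and Etfdh (r = 0.89). The mean profile of the 8 genes was closest to Iars2, the mitochondrial isoleucyl-tRNA synthetase (r = 0.96), Trap1 (r = 0.95), Pgm1 (r = 0.95), Coq6 (r = 0.94) and Aco1 (r = 0.94). All of these coefficients include the differences between the 4 groups, and they say nothing of shared function or control.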

How the data were processed

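Expression was measured in epididymal fat of 24 mice, 6 per group, with 1 one-colour Affymetrix array each. The deposited values are log2 signals made with RMA (background correction, quantile normalization between arrays and summary of probes) per the submitters' processing notes. The software version was not given in the sources used here, nor are batches. RMA compresses weak signals, which understates their changes. Of 35556 probe sets, 21789 carried 1 gene symbol in the platform annotation, 1621 several and 12146 none. Of the 21789, 21698 matched a GRCm38.p6 gene table, used to update symbols and for coordinates. Per gene the probe set with the highest mean was kept, leaving 19938 genes. Array medians were 7.09 to 7.20 (7.17 to 7.20 with fish oil and no microbes), correlations within groups 0.979 to 0.995, and 0 array pairs were identical.

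With limma 3.58.1 (R 4.3.3), lmFit fitted the 4 group means to the 24 arrays together and eBayes moderated the variances. Every p is two-sided and adjusted by Benjamini-Hochberg over 19938 genes per contrast, with a threshold of 0.05; ± values of changes are SEs. The method was tested on simulated data. The 8 genes, 4 pathway lists and marker lists, including those of hepatocyte and intestinal genes, were chosen with earlier results of these data known. Pathway genes are named for the up to 4 largest changes per list and contrast past the threshold, and likeness by the highest Pearson's r. Mpc2 was not analysed here. Alternatives were another scaling (median centring, repeated quantile normalization), a low-value filter at the 40th percentile, the mean of all probe sets, all probe sets, array weights, trend and robust priors, only the groups compared, mouse number as a block, a 1.5-fold minimum, and leaving out each mouse or the mice that stand apart. Promoter sequences are from RefSeq. Tables and figures used python 3.11.15, numpy 2.4.6, pandas 2.3.3 and matplotlib 3.10.9.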

Additional observations from a re-analysis of the deposited data

Results flagged for a closer look

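Among 160 sets of 6 mice (40 named genes in 4 groups), 7 had a mouse far from the others, where chance gives about 1 in 20. Fish oil-fed germ-free mouse 3 was low in Pcx, at 11.83 with the next mouse at 12.14, and in Ogdh, at 11.21 with the next at 11.43. Fish oil-fed germ-free mouse 2 was high in Fh1, at 11.66 (next 11.50), and mouse 6 of that group was high in Sdha, at 12.13 (next 11.97). Fish oil-fed conventional mouse 6 was high in Pdpr, at 10.01 (next 9.51), and in Glud1, at 10.98 (next 10.65). Lard-fed germ-free mouse 2 was low in Mpc1, at 11.22 (next 11.50).

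The effect of bacterial status differed between lard and fish oil, by limma's interaction test, in 13 of the 40 genes. Those 40 include genes named because they passed a contrast, the interaction among them, so the count is no measure of frequency. Over all 59 measured genes of the enzymes and pathway lists it was 14, and over all genes 7.2% passed. Without mice 2, 4 and 5 of the lard-fed germ-free group it was 0 of the 8 enzymes, where 5 had an unadjusted p under 0.05, and 1 of the 51 list genes. Among the enzymes the log2 interaction was -0.61 for Pdha1, -0.54 for Idh3a and -0.60 for Ogdh. In genes of pyruvate entry it was -0.67 for Pdk1, -0.61 for Pdpr, -0.69 for Dld and -0.44 for Dlat. In the cycle and the exchange of its intermediates it was -0.85 for Suclg2, -0.66 for Glud1, -0.78 for Me1 and -0.46 for Aco1, and among regulators -0.75 for Tfb2m and -0.64 for Tfb1m.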

How the results depend on the processing

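For lard over fish oil in conventional mice all 8 enzyme genes stayed called lower under every alternative run except the 1.5-fold minimum, which left 2; leaving out each mouse gave 8 to 8. In germ-free mice the 6 calls became 0 with the 1.5-fold minimum, 3 with median centring and 2 without mice 2, 4 and 5 of the lard-fed germ-free group, and 4 to 6 when each mouse was left out. For status with lard the 2 calls became 0 with the 1.5-fold minimum and without those mice, and 1 with only the groups compared, all probe sets or the replicate block, with a range of 1 to 3 over left-out mice. For status with fish oil the 6 calls became 0 with the 1.5-fold minimum and 3 with repeated quantile normalization, 4 with the replicate block and 3 to 7 over left-out mice. The 3 interactions became 6 with median centring and 0 without mice 2, 4 and 5 of the lard-fed germ-free group, with 3 to 5 over left-out mice and 3 with the block. The causes of these changes were not tested, beyond the fewer calls that a fold minimum brings by construction. Leaving out mice lowers precision but did not always lower the count. Without lard-fed conventional mice 5 and 6, calls over all genes rose from 3240 to 5079 for status with lard. For the interaction they rose from 1435 to 2710. No called value changed sign; those uncalled that did were Cs (-0.046 to 0.054) and Sucla2 (-0.021 to 0.045) for diet in germ-free mice over left-out mice, Sucla2 there at -0.033 with quantile normalization and -0.038 without mice 2, 4 and 5, Sucla2 for status with lard at 0.004 without them, and, without lard-fed conventional mice 5 and 6, Pcx for status with lard at 0.021 and the Fh1 interaction at 0.019. Single enzyme values kept both direction and side of the threshold in 909 cases, lost the threshold in 80, gained it in 18 and changed sign while uncalled in 9. Same-numbered mice of different groups did not deviate together (36 pairs, r from -0.497 to 0.351, 9 over 0.1), so the number does not pair them; under the block Idh3a for status with lard had adjusted p = 0.0612, and with fish oil Pcx had 0.0676 and Sucla2 0.0512. Calls in the pathway lists moved most for status: over left-out mice the other cycle enzymes had 2 to 6 calls with lard and 2 to 7 with fish oil, the exchange genes 3 to 8 with lard and 2 to 6 with fish oil, and the regulators 1 to 2 with lard and 1 to 3 with fish oil; for diet in conventional mice the regulators had 2 to 6. Over all genes, the calls in order of the 5 contrasts were 1627, 1985, 294, 361 and 385 with the 1.5-fold minimum. All probe sets gave 14835 for diet in germ-free mice and 5053 for status with lard, and array weights 5033 for status with lard and 2526 interactions. Without lard-fed conventional mice 5 and 6 there were 5079 and 2710 of these, and without mice 2, 4 and 5 of the lard-fed germ-free group there were 177 and 225, with 5278 for diet in germ-free mice. For the interaction, fitting only the groups compared is the same fit.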
